A study of Mus musculus with 8 samples.

Results

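The genes described here are the hormones and granule peptides of the pancreatic islet: Ins1, Ins2, Iapp, Gcg, Sst, Ppy, Pyy, Ucn3, Chga and Chgb. They were found by name, as the non-control probes whose RefSeq accession maps to one of these symbols. This gave 10 genes, each with 1 probe, among 22911 named genes and 56605 probes on the array. The groups were 4 control arrays, from islets of Fbln5-floxed mice, and 4 βFbln5KO arrays, from islets of mice that carried the same floxed alleles and an Ins1-Cre transgene. The transgene is a bacterial artificial chromosome in which the mouse insulin 1 promoter drives Cre recombinase, so the deletion was aimed at beta cells and the other islet cells kept the floxed allele. The study's methods give male littermates, an age of 11 weeks and 150 islets in each extraction. Fbln5 encodes fibulin-5, a protein of the extracellular matrix. The comparison asked whether its removal from beta cells went with another level of the islet's own secretory messages.

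Islet endocrine cells store peptide hormones in dense-core granules and release them when the cell is stimulated. Beta cells hold the insulins, amylin (from Iapp) and urocortin 3, alpha cells hold glucagon (from Gcg), delta cells hold somatostatin (from Sst), and PP cells hold pancreatic polypeptide (from Ppy). Peptide YY (from Pyy) is a relative of pancreatic polypeptide. Chromogranins A and B, from Chga and Chgb, are acidic proteins that load the granules of all these cells. The messages of these genes are among the most abundant in islets, which places their probes near the top of an array's signal range.

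The arrays labelled βFbln5KO were checked against Fbln5 itself. Its log2 signals were -1.70, -1.32, -2.05 and -1.83 on control arrays 1 to 4, and -2.74, -2.40, -2.38 and -1.37 on βFbln5KO arrays 1 to 4. The array labelled βFbln5KO replicate 4 lay within the control range and the other 3 lay below it. The log2 fold change was -0.50 (SE 0.29, limma adjusted p = 0.342). Without that array it was -0.78 with a limma adjusted p of 0.0227, in a fit that called 11544 of 56603 probes. The other 7 of the 8 fits with an array left out gave -0.61 to -0.33, none with an unadjusted limma p under 0.05. Where this probe lies relative to the floxed exons is not given in the sources used here, so the check is a limited one. Each genotype filled 1 row of a single slide, so an effect of genotype and one of slide row cannot be told apart. No spot of any array was saturated. Acinar RNA varied widely: the mean log2 level of 15 acinar marker genes ran from 5.66 to 7.77 on the control arrays and from 4.79 to 6.97 on the βFbln5KO arrays.

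The upstream sequences of several members are shown because they are the control regions from which these abundant messages are made, and because the members differ in the short motifs they hold. A promoter entry of RefSeq matched 9 of the 10 members (build GRCm38.p6). Each run below is the 250 bases before the start site, 5′ to 3′ on the gene's strand. Capitals mark every match, on either strand, to TGACG, the core of the cAMP response element, and to TAAT, the core that homeodomain factors bind. The first 3 are of the hormones Ins1 (chr19:52264047-52264296, + strand), Iapp (chr6:142298175-142298424, + strand) and Gcg (chr2:62483654-62483903, - strand).
Ins1: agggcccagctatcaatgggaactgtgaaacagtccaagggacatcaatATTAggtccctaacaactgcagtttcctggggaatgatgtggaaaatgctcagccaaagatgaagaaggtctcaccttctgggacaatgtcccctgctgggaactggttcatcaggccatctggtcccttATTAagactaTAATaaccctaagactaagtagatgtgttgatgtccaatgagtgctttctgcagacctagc
Iapp: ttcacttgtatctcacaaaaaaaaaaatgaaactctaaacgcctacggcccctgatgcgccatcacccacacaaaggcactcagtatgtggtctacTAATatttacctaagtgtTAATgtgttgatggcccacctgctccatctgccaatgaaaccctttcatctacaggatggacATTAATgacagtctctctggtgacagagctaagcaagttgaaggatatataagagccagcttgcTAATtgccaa
Gcg: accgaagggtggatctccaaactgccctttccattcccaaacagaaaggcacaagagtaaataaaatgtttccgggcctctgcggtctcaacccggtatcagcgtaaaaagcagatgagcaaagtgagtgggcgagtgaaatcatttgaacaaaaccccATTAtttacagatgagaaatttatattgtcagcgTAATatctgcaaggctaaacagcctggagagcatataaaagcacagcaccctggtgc

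The next sequences are of the granins Chga (chr12:102554691-102554940, + strand) and Chgb (chr2:132781392-132781641, + strand), in which TGACG was found.
Chga: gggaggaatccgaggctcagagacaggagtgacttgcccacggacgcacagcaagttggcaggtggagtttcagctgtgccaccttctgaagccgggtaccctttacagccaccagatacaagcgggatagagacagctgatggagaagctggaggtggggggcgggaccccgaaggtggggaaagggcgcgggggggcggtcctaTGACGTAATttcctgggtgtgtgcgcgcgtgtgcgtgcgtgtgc
Chgb: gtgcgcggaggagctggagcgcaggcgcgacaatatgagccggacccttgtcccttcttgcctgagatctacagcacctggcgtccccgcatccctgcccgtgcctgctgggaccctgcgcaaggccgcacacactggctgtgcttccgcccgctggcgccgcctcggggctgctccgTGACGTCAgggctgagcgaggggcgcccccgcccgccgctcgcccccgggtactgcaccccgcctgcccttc

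TAAT was found in 6 of the 9 members, with 5 matches in Iapp, 3 in Ins1, 2 each in Gcg and Ucn3, and 1 each in Sst and Chga. The same 4 letters were found in 54.9% of 32851 promoter entries of the same length. TGACG was found in 3 members, Sst, Chga and Chgb, and in 17.8% of all promoter entries. The start site of the Sst entry lies 498 bases inside the gene's span in the RefSeq table, so its window, which is not printed, is within that gene model. The full palindrome TGACGTCA, which contains TGACG on both strands, was in Sst and Chgb and in 1.55% of the entries. TATAA was in 5 members (Ins1, Iapp, Gcg, Ppy and Pyy) and in 22.8% of the entries. Ppy and Pyy lie beside each other on chromosome 11, with 0 protein-coding genes between them in the RefSeq table. These matches describe letters in a window and not binding.

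No member passed the test between the genotypes. After each array's 75th percentile was subtracted, 0 of the 10 members reached an adjusted p under 0.05 in limma, against 0.0147% of the 13650 genes well above background on all 8 arrays. At an unadjusted p under 0.05 the count was also 0 of 10, against 4.09% of those genes. The fitted log2 fold changes, βFbln5KO minus control, ran from -0.18 for Ins2 to 0.10 for Ucn3 with a median of -0.096, and the lowest adjusted p was 0.400. With this scaling 9 of 10 members had a value below 0, but only 1 of 10 did with quantile normalization, with no scaling, or with the 99.9th percentile subtracted. The share below 0 was 53.6% among the genes well above background on all arrays and 83.7% among the 289 genes at least as bright as the dimmest member. In whole islets, fewer cells of a type and less RNA per cell cannot be told apart.

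**Figure D1:**
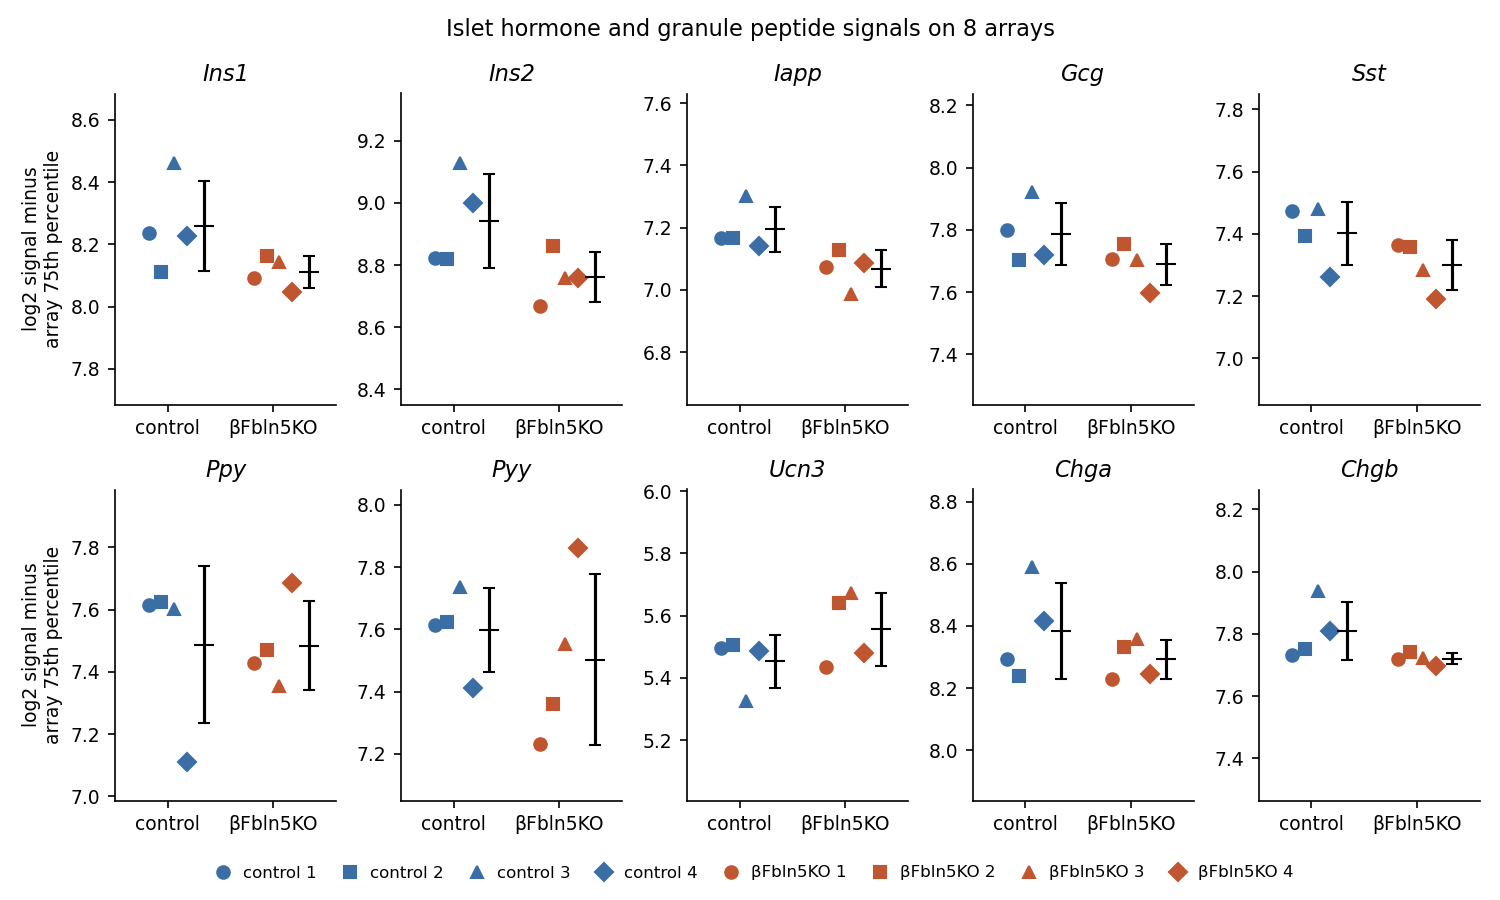
Log2 signal (75th percentile of the array subtracted) of the 10 members on each of 4 control and 4 βFbln5KO arrays, 1 point per array, with the group mean and SD (n = 4) as a bar beside the points; the vertical axes do not start at 0. The groups overlap for every member except Iapp, whose 4 βFbln5KO values (6.99 to 7.13) lie just below the 4 control values (7.14 to 7.30).

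The products of the beta cell were taken first. Mice carry a pair of insulin genes, and the Ins2 probe was the brightest of all 56605 probes. Ins2 gave log2 signals of 8.82, 8.82, 9.13 and 9.0 on control arrays 1 to 4 and 8.67, 8.86, 8.76 and 8.76 on βFbln5KO arrays 1 to 4. Of the βFbln5KO arrays, 3 of 4 lay below every control array, and replicate 2 lay among the controls. The fold was 0.882 with a 95% confidence interval from 0.722 to 1.08 (log2 fold change -0.18, SE 0.13, limma adjusted p = 0.464; exact two-sided permutation p = 0.0857).

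Ins1, the other insulin gene, gave 8.24, 8.11, 8.46 and 8.23 on the control arrays and 8.09, 8.16, 8.14 and 8.05 on the βFbln5KO arrays. The groups overlapped, and control replicate 3 was the highest of the 8 for both insulins. Its fold was 0.902 (95% confidence interval 0.758 to 1.07; limma adjusted p = 0.493). The promoter of this gene also drives the Cre transgene, and whether the transgene adds to the signal of the Ins1 probe was not tested.

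Iapp encodes amylin, which is released with insulin. It was the only member whose groups did not overlap, with control values of 7.17, 7.17, 7.30 and 7.14 and βFbln5KO values of 7.07, 7.13, 6.99 and 7.09. Its log2 fold change was -0.13 (SE 0.080), a fold of 0.916 with an interval from 0.808 to 1.04 (limma adjusted p = 0.400). The exact two-sided permutation test gave 0.0286, the smallest p that 70 splits of 8 arrays allow. Separation of this kind, lower in βFbln5KO, was seen in 2.07% of the genes well above background on all arrays and in 5.54% of those at least as bright as the dimmest member. The sign turned with no scaling (log2 fold change 0.026), with quantile normalization (0.044) and with the 99.9th percentile subtracted (0.043).

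Ucn3 encodes urocortin 3, which mature beta cells release and to which delta cells respond. It was the dimmest member and the only one with a value above 0. The control values were 5.50, 5.51, 5.33 and 5.49, and the βFbln5KO values were 5.43, 5.64, 5.67 and 5.48. The groups overlapped, with a log2 fold change of 0.10 (SE 0.078, 95% confidence interval -0.074 to 0.28; exact two-sided permutation p = 0.286). Like Ins2, it kept its sign in all 22 alternative settings, from 0.061 to 0.27 on the log2 scale, and passed an adjusted p of 0.05 in none. Some of these settings change only the test and leave the fold change as it was, so they could not turn its sign.

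None of the hormones of the other endocrine cells passed the test. Gcg gave 7.80, 7.70, 7.92 and 7.72 on the control arrays and 7.71, 7.75, 7.70 and 7.60 on the βFbln5KO arrays. The groups overlapped, and the fold of 0.936 had a log2 interval from -0.31 to 0.12 (limma adjusted p = 0.630). Sst gave 7.47, 7.39, 7.48 and 7.26 on the control arrays and 7.36, 7.36, 7.28 and 7.19 on the βFbln5KO arrays. Its fold was 0.931 with a log2 interval from -0.31 to 0.10 (limma adjusted p = 0.581). On both probes the βFbln5KO replicate 4 array was the lowest of the 8.

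The Y family peptides also had no call. Ppy gave 7.61, 7.62, 7.60 and 7.11 on the control arrays, so control replicate 4 stood apart from the other 3, and 7.43, 7.47, 7.35 and 7.69 on the βFbln5KO arrays. The fold was 0.998 with a 95% confidence interval from 0.798 to 1.25 (limma adjusted p = 0.994). Without control replicate 4 the log2 fold change was -0.13, and without each of the other arrays it lay between -0.070 and 0.043. Pyy gave 7.61, 7.63, 7.74 and 7.41 on the control arrays and 7.23, 7.36, 7.55 and 7.86 on the βFbln5KO arrays. Here the arrays labelled βFbln5KO held both the lowest and the highest of the 8 values, the highest being replicate 4. The log2 fold change was -0.096 (SE 0.15, limma adjusted p = 0.782), -0.22 without βFbln5KO replicate 4 and -0.0054 without βFbln5KO replicate 1. After each group's mean was subtracted, Ppy and Pyy followed each other over the 8 arrays with r = 0.66.

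The granins of the granule core did not pass the test either. Chga gave 8.29, 8.24, 8.59 and 8.42 on the control arrays and 8.23, 8.33, 8.36 and 8.25 on the βFbln5KO arrays, with groups that overlapped. Its fold was 0.938 (log2 interval -0.36 to 0.17; limma adjusted p = 0.723). Chga lies on chromosome 12 near Fbln5, with 8 protein-coding genes between them in the RefSeq table, and both groups carried the floxed Fbln5 allele. Chgb gave 7.73, 7.75, 7.94 and 7.81 on the control arrays and 7.72, 7.74, 7.72 and 7.70 on the βFbln5KO arrays. The βFbln5KO values were close together (SD 0.0175, n = 4, against 0.0929 in the controls), and the fold was 0.940 (log2 interval -0.29 to 0.12; limma adjusted p = 0.643).

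The Chgb probe was spotted 10 times on every array, which gave a measure of the error of a single spot. Within an array the SD between its spots was 0.045 to 0.074 on the log2 scale. A mean of 10 such spots has a standard error of 0.014 to 0.023. The SD of the 8 array means was 0.078, and 0.036 without control replicate 3, and that of the 4 βFbln5KO means, 0.0175, was within the standard error of a mean. The other 9 members were read from 1 spot per array.

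**Figure D2:**
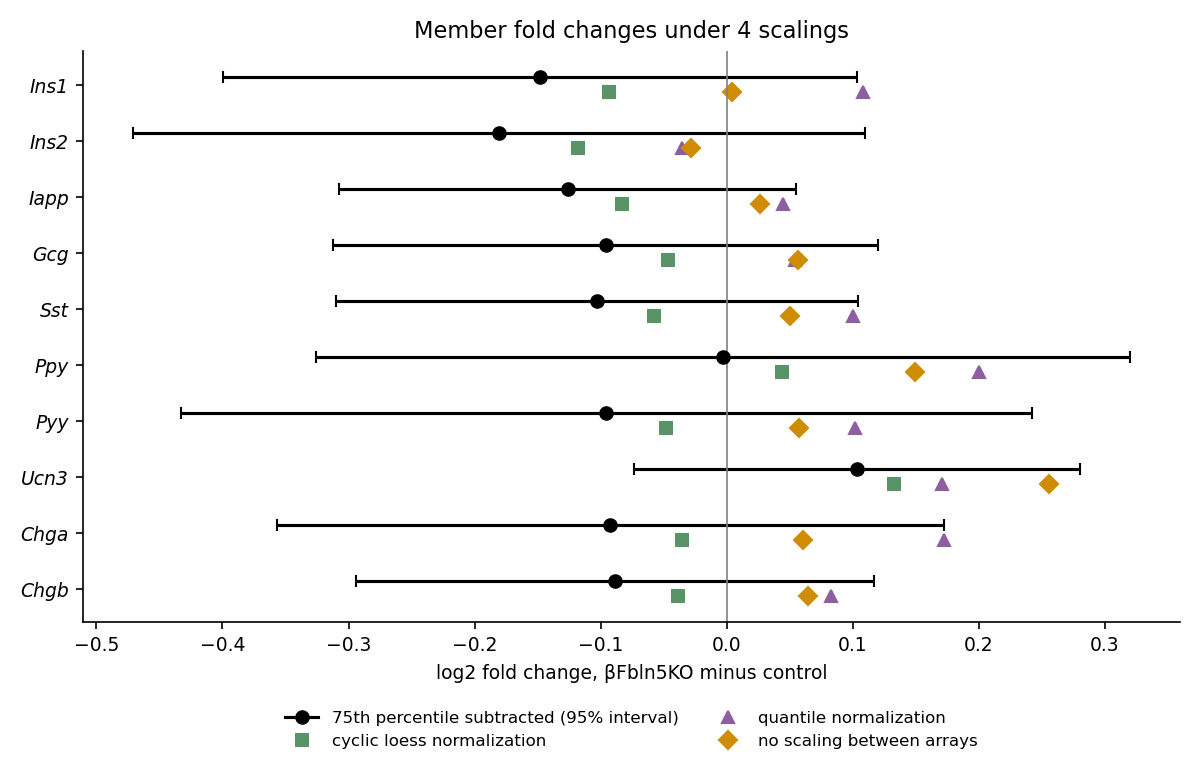
Log2 fold change of each member, βFbln5KO minus control, with the 75th percentile subtracted (black, with its 95% confidence interval from limma) and, as points alone, with cyclic loess, quantile or no normalization of the same arrays. Every interval crosses 0, and the points of 8 members lie below 0 with the 75th percentile and above 0 with quantile or no normalization.

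The members' deviations from their group means moved together for some pairs and not for others. Of 45 pairs, 16 had a negative r, and the median over all pairs was 0.18. The highest values of r over 8 arrays were 0.92 for Ins1 with Chga, for Ins2 with Chga and for Chga with Chgb, 0.91 for Ins1 with Gcg, 0.88 for Chgb with each insulin, and 0.81 for Ins1 with Ins2. Sst with Chga gave 0.13, and Pyy gave 0.043 with Ins1 and 0.094 with Chga. All 9 pairs with Ucn3 were negative, down to -0.59 with Iapp. The other 7 negative pairs ran from -0.012 for Ins2 with Sst to -0.24 for Ppy with Chga and for Sst with Pyy. Control replicate 3 gave the highest value of Ins1, Ins2, Iapp, Gcg, Sst, Chga and Chgb and the lowest of Ucn3. That array also had the lowest 75th percentile, a signal of 709 against 835 to 1055 on the other arrays, and this number is subtracted from every gene. These correlations share the arrays and the scaling and are given as a description.

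Genes with the most similar pattern over the arrays were looked up for the hormones of the other endocrine cells, among 13551 other genes well above background, and with no spot left out, on all arrays, and with the group means subtracted. For Gcg they were Olfr544 (r = 0.98), Slc30a8 (0.98), the zinc transporter of the insulin granule, and Jak3 (0.98). For Sst they were Frg1 (r = 0.99), Teddm2 (0.98) and Rpl4 (0.97), a ribosomal protein. For Ppy they were Atg4c (r = 0.98), Tmem35b (0.97) and Nicn1 (0.97). With 8 arrays and this many genes, values of this size describe likeness only.

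Unscaled signals of the brightest members differed little between arrays. The raw signal of Ins2 ran from 393862 to 456770, a ratio of highest to lowest array of 1.16, and Ins1 and Chga gave the same ratio. Iapp, Gcg and Chgb had ratios of 1.28 to 1.30, Sst 1.37, Pyy 1.55, Ppy 1.73 and Ucn3, the dimmest member, 1.69. Before scaling, Ins2 spanned 0.21 on the log2 scale over the 8 arrays, and after the 75th percentile was subtracted it spanned 0.46. For Ucn3 the same step narrowed the span from 0.76 to 0.34. Subtracting the 75th percentile therefore widened the spread of Ins1, Ins2 and Chga and narrowed or kept that of the other 7 members.

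Over all probes the arrays drew together up to the 99.9th percentile. The range between arrays was 0.58 on the log2 scale at the median signal, 0.57 at the 75th percentile, 0.50 at the 90th, 0.33 at the 99th, 0.23 at the 99.9th and 0.30 at the 99.99th. At the 75th percentile the βFbln5KO arrays were higher than the control arrays by 0.15, at the 99.9th percentile the difference was -0.017, and at the 99.99th it was -0.10. The 75th percentile scaling thus takes 0.15 from every gene of the βFbln5KO arrays, although the arrays differed by less at the brightness of the members. Among the brightest 100 probes, 97% had a log2 fold change below 0 with a median of -0.13. Among the next 900 probes the share was 74% and the median -0.043, and among the 4000 after those 51.9% and -0.0033.

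The brightest members were not at the scanner's limit. The scanner files give a saturation value of 778736, and no member's median spot signal exceeded 51.4% of it. This highest share was reached by Ins2, and for Ucn3 it was 5.83%. The E1A spike-in probes, RNAs added in known amounts before labelling, cover a range that ends below most members. Their brightest level had median signals of 55201 to 75412, above Ucn3 and below the other 9 members. The slope of signal on added amount, both on a log10 scale, was 0.948 to 0.966 on the control arrays and 0.996 to 1.01 on the βFbln5KO arrays. The βFbln5KO minus control difference of the brightest spike-in was -0.25 on the unscaled log2 scale, and the next 3 in brightness gave -0.22, -0.20 and -0.21, while the 75th percentile of all spots differed by 0.15 in the other direction. What the narrowing at the top comes from was not tested.

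**Figure D3:**
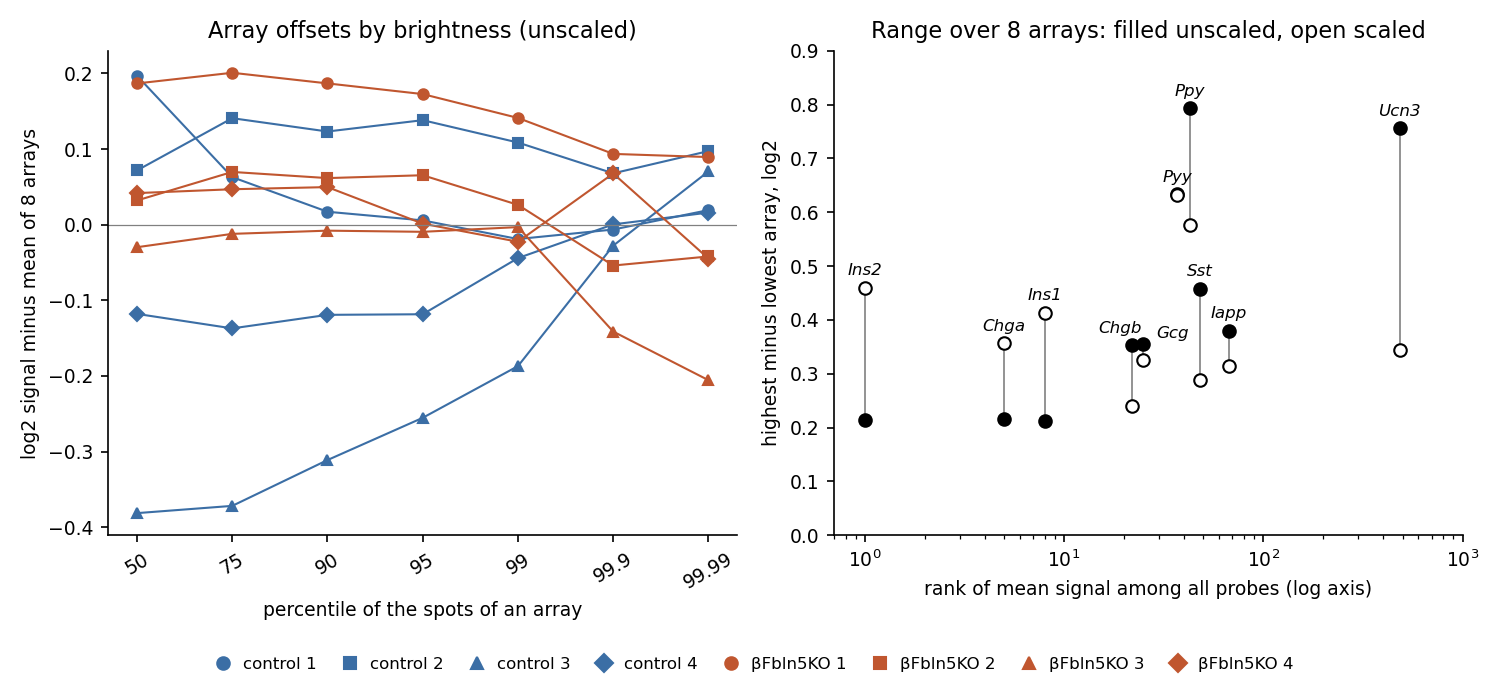
Left, the unscaled log2 signal of each array minus the mean of the 8 arrays, at rising percentiles of the array's spots. Right, the log2 range of each member over the 8 arrays before (filled) and after (open) the 75th percentile was subtracted, against the rank of its signal among all probes (log axis). The arrays draw together from a range of 0.58 at the median to 0.23 at the 99.9th percentile and lie 0.30 apart at the 99.99th, and scaling widens the range of Ins1, Ins2 and Chga.

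Differences between members of the same array do not change when 1 number is subtracted from that array, as in the percentile scalings, but they do change with quantile, cyclic loess or normexp settings. They compare a pair of probes only with the same pair on other arrays. Relative to Ins2, Ins1 was at -0.68 ± 0.078 (SD, n = 4) on the control arrays and -0.65 ± 0.065 on the βFbln5KO arrays, a difference of 0.032 that became 0.14 with quantile normalization. The corresponding difference was 0.054 for Iapp (0.15 with normexp), 0.078 for Sst and 0.084 for Gcg, each within the spread between arrays. For Ppy it was 0.18, from -1.45 ± 0.33 to -1.28 ± 0.16. Without control replicate 4 these differences were 0.0026 for Ins1, 0.017 for Iapp, 0.012 for Sst, 0.042 for Gcg and 0.032 for Ppy, and without control replicate 1 they were 0.065, 0.086, 0.14, 0.13 and 0.26. The difference of Pyy, 0.085, was -0.036 without βFbln5KO replicate 4 and 0.17 without βFbln5KO replicate 2. The difference between Gcg and Sst was 0.31 to 0.46 on the control arrays and 0.34 to 0.42 on the βFbln5KO arrays. The group means of this difference, 0.38 ± 0.076 and 0.39 ± 0.035 (SD, n = 4), differed by 0.0066, by -0.056 with the normexp background correction and by -0.046 with quantile normalization.

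Ucn3 and Chga were the members whose difference from Ins2 did not overlap between groups. They were added to the comparison after the values were seen. Ucn3 minus Ins2 was -3.80 to -3.31 on the control arrays and -3.28 to -3.09 on the βFbln5KO arrays, with group means of -3.49 and -3.20. Chga minus Ins2 was -0.582 to -0.529 on the control arrays and -0.528 to -0.399 on the βFbln5KO arrays, with means of -0.56 and -0.47. The Chga groups thus nearly touched, at -0.529 and -0.528, closer than the SD of 0.045 to 0.074 between spots of the Chgb probe. The difference between the group means was 0.28 for Ucn3 and 0.18 without control replicate 3, and for Chga it was 0.088 and became 0.21 with quantile normalization. Ucn3 and Ins2 differ in brightness, and the offset between the groups changed with brightness. Unscaled, βFbln5KO minus control was 0.071 at the 99th percentile of spots, near Ucn3, and -0.10 at the 99.99th, near Ins2. The part of this offset in the Ucn3 difference was not tested. A difference from Ins2 that was higher in βFbln5KO without overlap was found for 6.6% of the 13649 other genes well above background on all arrays, and for 5.9% of the 288 at least as bright as the dimmest member. Both are among the 9 members compared, and no test was made of this count.

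**Figure D4:**
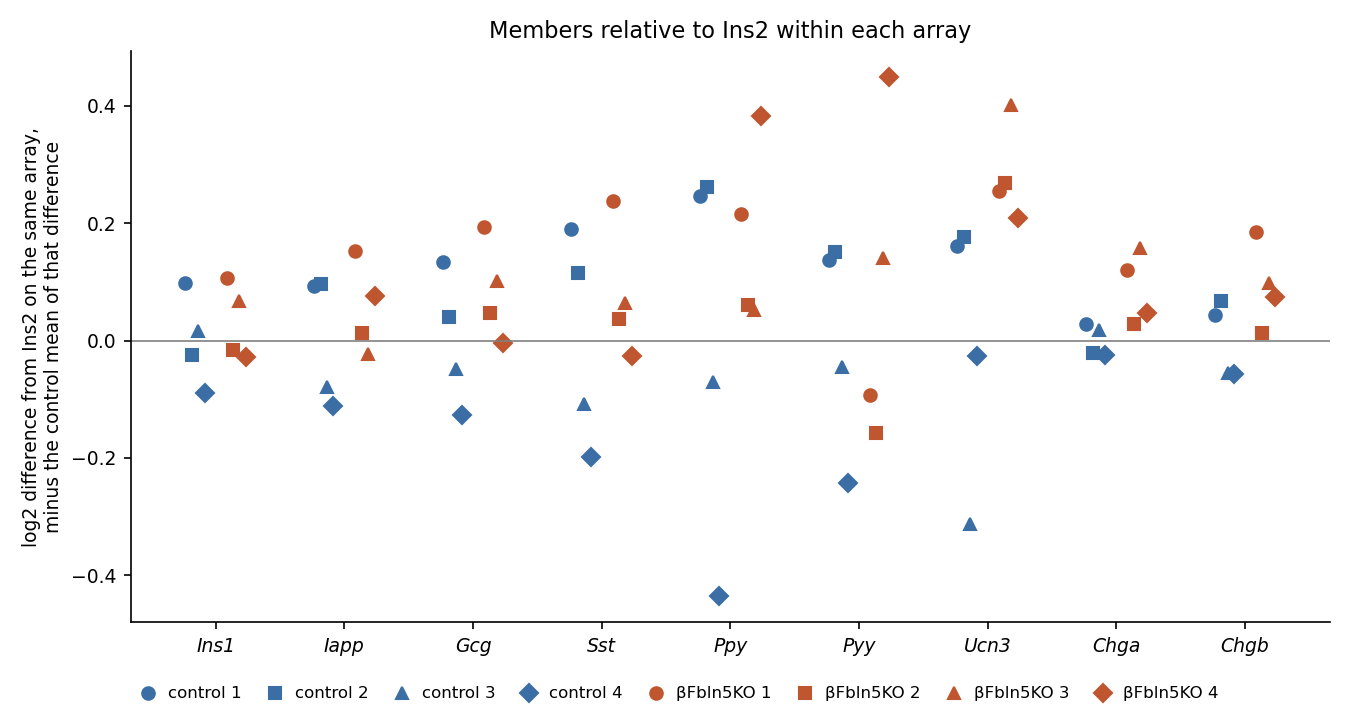
Log2 signal of each member minus that of Ins2 on the same array, 4 control and 4 βFbln5KO arrays, shown relative to the control mean of each member. Ucn3 and, only just, Chga have βFbln5KO values above all their control values, and the other members overlap.

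Other genes of the granule pathway were read from lists. Over 23 other granins and peptide cargo genes the median change was -0.059 (log2), 0 passed an adjusted p of 0.05, and at an unadjusted limma p under 0.05 1 was higher and 1 lower. The higher one, Crh, was not well above background on any array. The lower one, Resp18, a granule protein of endocrine cells, gave 6.17, 6.22, 6.22 and 5.91 on the control arrays and 5.90, 5.95, 5.74 and 5.79 on the βFbln5KO arrays (log2 fold change -0.28, SE 0.092). Without scaling between arrays its log2 fold change was -0.13. None of the 15 processing and granule proteins, which include the prohormone convertases and carboxypeptidase E, passed even the unadjusted threshold, and their median was -0.017.

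The list of receptors of the member hormones held 20 genes, of which 14 stood well above background on every array and the somatostatin receptor Sstr2 on none. The median was -0.063. The insulin receptor Insr was lower at an unadjusted limma p of 0.0487 (log2 fold change -0.34, SE 0.15) and Calcr, not above background on any array, was higher. For Insr this held in 6 of 22 alternatives and, of the 8 fits with an array left out, only in the one without control replicate 2. Of 20 transcription factors of hormone genes, 16 had a value below 0, with a median of -0.068. At an unadjusted p under 0.05 1 was lower and 1, Pou3f4, well above background on 1 array, was higher. None of these lists had a gene at an adjusted p under 0.05.

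Markers of the islet cell types, without the hormones themselves, were set beside the hormones. The median log2 fold change of 10 beta cell markers was -0.043, and 0 passed the unadjusted threshold. This median was -0.0048 with quantile normalization and 0.11 with no scaling. With an array left out it ran from -0.076 (without βFbln5KO replicate 2) to -0.010 (without βFbln5KO replicate 4). Among the 10 genes the lowest value was -0.13, for the transcription factor Nkx6-1, with an interval across 0. Slc30a8, at -0.11, was lower on every βFbln5KO array (6.64 to 6.77) than on any control array (6.78 to 6.93). Both were named after their values were seen. With no scaling 0 of 10 beta cell markers were below 0, against 7 of 10 with the 75th percentile. The 8 delta cell markers had a median of -0.077, which was 0.076 with no scaling, 0.093 with the 99.9th percentile subtracted, 0.032 with the mean over each gene's probes, -0.0064 without βFbln5KO replicate 2 and -0.17 over the 7 genes left by the filter on dim probes. Lepr, the leptin receptor, was lower at an unadjusted limma p of 0.0185 (log2 fold change -0.31), but the mean over its probes gave 0.051 with no call, and Prg4, not above background on any array, was higher. Only 2 of the 5 PP cell markers stood well above background on every array, and the list is too dim to read beside Ppy.

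Against 53.6% of the genes well above background on all arrays, 9 of 10 alpha cell markers were below 0. The markers' median log2 fold change was -0.27, and Gcg was at -0.096. Their median was -0.12 with no scaling and -0.10 with the 99.9th percentile subtracted, with 7 of 10 below 0 under each of these. At an unadjusted limma p under 0.05, 2 of 10 were lower, and 0 passed the adjustment. They included Dpp4, the peptidase that clips incretins, with a log2 fold change of -0.52 (SE 0.21) and groups that overlapped. The mean over its probes gave -1.02, and its unadjusted p passed 0.05 in 9 of 21 alternatives, but not without control replicate 1 or 4 or βFbln5KO replicate 1 or 4.

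The rest of the alpha list was less even. The transcription factors Irx1 and Irx2 were at -0.36 and -0.31, with βFbln5KO replicates 1, 2 and 4 below every control array for both, while replicate 3 was above every control array. The transport proteins Ttr and Gc were at -0.23 and 0.18. The amino acid transporters Slc7a2 and Slc38a5 were at -0.15 and -0.59, and the convertase Pcsk2, which cuts proglucagon, was at -0.14. None of these 7 passed the unadjusted threshold. No test was made of the difference between the alpha list and Gcg.

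**Figure D5:**
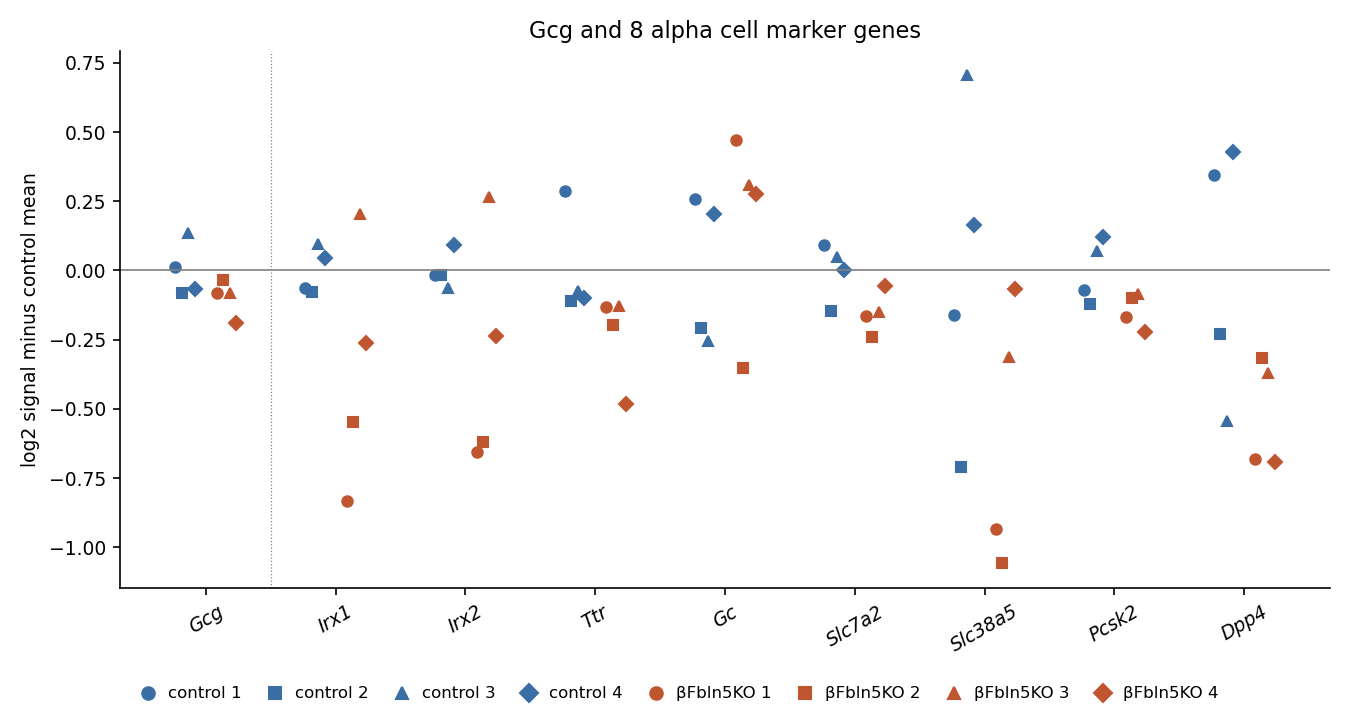
Log2 signal minus the control mean for Gcg and 8 alpha cell marker genes, 1 point per array. The points of Gcg lie closer to 0 than those of most markers, and Irx1, Irx2 and Slc38a5 are lowest on the βFbln5KO replicate 1 and 2 arrays.

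Acinar markers differed more between arrays than those of the islet cells. The median over the 15 acinar marker genes was a log2 fold change of -1.18, with 14 of 15 below 0, and Cela1, an elastase, was lower at an unadjusted limma p of 0.0260. With an array left out this median ran from -0.75 (without control replicate 3) to -1.65 (without βFbln5KO replicate 4), and Cela1 missed the unadjusted threshold without control replicate 3 or 4 or βFbln5KO replicate 2 or 3. The mean log2 level of the list was 5.88, 5.66, 7.77 and 7.39 on control arrays 1 to 4 and 6.01, 4.79, 4.92 and 6.97 on βFbln5KO arrays 1 to 4. The arrays with the most acinar signal were control replicates 3 and 4 and βFbln5KO replicate 4. They include the array with the highest scaled insulins, the one with the lowest Ppy and the one with the highest Pyy. The unscaled insulin signals of that first array, control replicate 3, were not high. Its Ins1 signal, 249832, was the lowest of the 8 arrays, and its Ins2 signal was 396541 in a range of 393862 to 456770. Of 8 ductal markers 1, Onecut1, was lower at an unadjusted limma p of 0.0220 and the list's median was -0.15. Over the 4 ductal genes well above background on all arrays the median was 0.0059, and Onecut1, well above background on 5 arrays, missed that threshold without control replicate 3 or βFbln5KO replicate 1 or 2. The part of acinar and ductal RNA in the members' values was not tested.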

How the data were processed

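Islet RNA of 4 control and 4 βFbln5KO samples was hybridised to Agilent one-colour arrays and read with Feature Extraction 11.0.1.1, per the labels. The authors deposited each spot's processed signal intensity, background-subtracted and spatially detrended, and a value table of ratio values, this signal divided by 1 constant per array (within 0.01% for 99.2% of values). The deposited intensity was taken as log2, less the 75th percentile of the array. Spots marked as outliers were left out, spots of a probe were averaged, and a gene was counted by its brightest probe. The genotypes were compared over all 56605 probes with limma 3.58.1 (eBayes with trend, Benjamini-Hochberg adjustment over all probes) in R 4.3.3, and single members with an exact two-sided permutation test over the arrays. The script was tested on simulated data. Nothing says whether the 4 samples of a group came from separate animals, so p-values measure the spread between these samples. The number of arrays limits the precision.

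The members and gene lists were chosen with earlier results of these data known. Genes outside the members were named where they were in a list and reached an unadjusted p under 0.05 on a probe well above background on at least 4 arrays (at most 5 a list), or by likeness to Gcg, Sst or Ppy. The other alpha cell markers, and the dim genes, were named after their values were seen. Lists covered other granins and cargo, processing and granule proteins, hormone receptors, transcription factors, and markers of the islet's alpha, beta, delta and PP cells and of acinar, ductal, endothelial, mesenchymal, neural and macrophage cells. Alternatives were another background correction, quantile and cyclic loess normalization, a percentile over detected probes, a filter and a floor for dim probes, eBayes without trend, outlier spots kept, the deposited table, the methods' t-test, a replicate block, gene means and each array left out. No scaling, and the 99.9th percentile, were added after seeing the data. Probe sequences were not used here, so shared hybridisation of Ins1 with Ins2, or of Ppy with Pyy, was not tested. The array files and the RefSeq table name different builds, and coordinates are printed only for RefSeq promoters. Values of some list members are not reported here, though their lists' counts include them.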

Additional observations from a re-analysis of the deposited data

Results flagged for a closer look

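In 36 groups of 4 arrays, 18 genes in either genotype, 5 values stood apart from the other 3 arrays of their group by a gap test, where chance gives about 1 in 20. Iapp on control replicate 3 was at 7.30, above 7.14 to 7.17 on the other control arrays. Ppy on control replicate 4 was at 7.11, below 7.60 to 7.62. Ucn3 on control replicate 3 was at 5.33, below 5.49 to 5.51. Resp18 on control replicate 4 was at 5.91, below 6.17 to 6.22. Insr on βFbln5KO replicate 2 was at -2.68, above -2.78 to -2.76 on the other βFbln5KO arrays. All are log2 signals with the 75th percentile subtracted. Control replicates 3 and 4, which hold 4 of these 5 values, also had the highest acinar marker levels of the control arrays. What sets these values apart was not tested.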

How the results depend on the processing

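No member passed an adjusted p of 0.05 under any of 22 alternative settings. Ins2 (-0.22 to -0.011 on the log2 scale) and Ucn3 (0.061 to 0.27) kept their sign in all of them. Settings that change only the test, such as eBayes without trend, leave a fold change as it was and could not turn a sign. With quantile normalization the log2 fold changes turned positive for Ins1 (0.11), Iapp (0.044), Gcg (0.054), Sst (0.10), Ppy (0.20), Pyy (0.10), Chga (0.17) and Chgb (0.083). With no scaling between arrays, a setting chosen after seeing the data, they were 0.0044 for Ins1, 0.026 for Iapp, 0.056 for Gcg, 0.050 for Sst, 0.15 for Ppy, 0.057 for Pyy, 0.060 for Chga and 0.064 for Chgb. With the 99.9th percentile subtracted, also chosen after seeing the data, they were 0.021 for Ins1, 0.043 for Iapp, 0.073 for Gcg, 0.067 for Sst, 0.17 for Ppy, 0.074 for Pyy, 0.077 for Chga and 0.081 for Chgb. The number of members below 0 fell from 9 to 1 in these 3 settings. Without scaling the median of all probes was 0.18, with the 99.9th percentile 0.20, and with the 75th 0.029.

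Ppy also turned positive with cyclic loess (0.044), with the 75th percentile over detected probes (0.0057) and in the deposited table (0.0026), and ranged from -0.13 to 0.043 with an array left out. Leaving out an array gave -0.20 to -0.081 for Ins1, -0.15 to -0.091 for Iapp, -0.12 to -0.051 for Gcg, -0.15 to -0.067 for Sst, -0.22 to -0.0054 for Pyy, -0.14 to -0.024 for Chga and -0.11 to -0.045 for Chgb. The methods' t-test gave 1 member at an unadjusted p under 0.05, Iapp (p = 0.0347 with 4 arrays a group, 0.166 after Benjamini-Hochberg, against a permutation p of 0.0286). In the 4 gene lists of the granule pathway, adjusted calls rose from 0 to 2 genes with eBayes without trend (Crh and Calcr), where calls over all probes rose from 6 to 6578 of 56605, and 0 to 4 with an array left out, the 4 without βFbln5KO replicate 4, of which 3 (Crh, Calcr and Pou3f4) were dim, well above background on 1 array at most. The latter fit called 11544 of 56603 probes. Unadjusted calls, 6 in the main setting, were 1 with quantile normalization, 3 with cyclic loess, 2 with a common floor, 3 with no scaling, 8 with the methods' t-test, 9 with the replicate block and 5 to 8 with an array left out. Lepr turned positive (0.051) with the mean over its probes. The cause of these shifts was not tested.

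Whether replicate numbers pair the arrays was not settled. After each group's mean was subtracted, same-numbered arrays correlated at 0.20, 0.30, -0.22 and -0.022 over 26341 probes. Arrays with different numbers were not compared in this way. A replicate block left the members' fold changes and their lack of calls as they were, with 2 adjusted calls over all probes in place of 6. Replication limits what can be seen: the members' 95% intervals reach log2 fold changes of -0.47 and 0.32.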

Other observations

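Markers of the supporting cells of the islet had no call. The 8 endothelial markers had a median log2 fold change of -0.033, the 8 macrophage markers -0.023, the 10 mesenchymal markers -0.070 and the 5 neural and Schwann markers 0.055, and 0 genes of these lists passed an unadjusted limma p of 0.05. The mean log2 level of the neural list was -1.0 on the array labelled βFbln5KO replicate 4, against -2.26 to -1.67 on the other 7 arrays, and that of the macrophage list was 0.16 on βFbln5KO replicate 1, against -0.54 to -0.19 on the others.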
